A study of Homo sapiens with 36 samples.

Results

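Siglecs are sialic acid-binding lectins of the immunoglobulin superfamily, and 8 genes of myeloid Siglec receptors are described here: SIGLEC1, CD33, SIGLEC5, SIGLEC6, SIGLEC7, SIGLEC9, SIGLEC10 and SIGLEC14. They were named as a list among 35472 genes obtained by summing transcripts by symbol, and were chosen by what they are and by a measured value, the higher SIGLEC1 level with A9 in MONO-MAC-6 cells. All measures of the 8 genes in that comparison are therefore given as a description, with no test. Transcripts of 7 of the 8 genes were in the tables used, and SIGLEC5 was not analysed here. RNA was measured in MOLM-13 and MONO-MAC-6, both established human acute myeloid leukaemia (AML) cell lines that the labels give as wild type, after 72 h with DMSO (the solvent control) or with A9. A9 is labelled a PROTAC, a compound that brings target proteins to the degradation machinery. The series design names IKK2 and NR4A1 as its targets, whereas the series title names IKK1 and NR4A1. A9 was used at 0.125 µM in MOLM-13 and at 0.25 µM in MONO-MAC-6, so effects of line and of dose cannot be told apart. Each line is a cultured model that lacks the other cells of blood and marrow.

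Each of the 4 groups held 9 libraries, and each library carries a pair of numbers in its label. The 3 libraries with the same first number were averaged to 1 sample, which gave 3 samples per group, as the design text states. Nothing in the labels says that these samples came from separate cultures, so p-values measure only the spread between these samples, which may be technical. Values are TPM, a transcript abundance that is divided by transcript length and adds up to 1000000 in each library. The depth behind each value is unknown, because TPM hold no counts. MONO-MAC-6 DMSO sample 1 stood apart on the first principal component (63.3, against -23.3 to 2.73 for the other 5 samples of the line). In MOLM-13 the ends of that component were A9 sample 3 at 38.0 and DMSO sample 1 at -31.2. Myeloid identity was present in both lines: LYZ (lysozyme) reached 133 ± 10.4 TPM with DMSO in MOLM-13 and 3413 ± 301 TPM in MONO-MAC-6 (SD, n = 3). CD14 (the lipopolysaccharide co-receptor of monocytes) was at 0.295 TPM in DMSO-treated MOLM-13 and at 3.14 TPM in DMSO-treated MONO-MAC-6. The macrophage complement genes C1QA, C1QB and C1QC were at 0 in every sample of both lines.

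Siglecs read sialic acid on glycans through an amino-terminal V-set domain. Most myeloid members, CD33, SIGLEC5, SIGLEC6, SIGLEC7, SIGLEC9 and SIGLEC10 among them, carry tyrosine motifs in the cytoplasmic tail that recruit the phosphatases SHP-1 (PTPN6) and SHP-2 (PTPN11) and dampen activation. SIGLEC14 is instead an activating receptor that pairs with the adaptor DAP12 (TYROBP). SIGLEC1, also called sialoadhesin or CD169, is a long adhesion receptor of macrophages without an inhibitory motif, and its gene is induced by interferon. CD33 is the surface antigen of AML blasts against which antibody conjugates were developed.

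The summed TPM of CD33 and SIGLEC1 hide transcripts that differ in what they encode, so the exon junctions that set these transcripts apart are printed here. Sequences come from GENCODE 29 transcripts on GRCh38, are 5′ to 3′ in gene sense, and show 30 bases of the shared upstream exon in lower case and the 30 bases that follow in capitals. CD33 lies on the plus strand at chr19:51225064-51243860 (ENSG00000105383). Its exon 2, chr19:51225218-51225598, has 381 bases and encodes the sialic acid-binding V-set domain. Of 4 coding transcripts, 2 hold this exon (CD33-201 and CD33-202) and 2 lack it (CD33-203 and CD33-204). SIGLEC1 lies on the minus strand at chr20:3686970-3707128 (ENSG00000088827). SIGLEC1-201 has 21 exons, whereas SIGLEC1-202 has 5, starts inside the gene, and runs on past the end of exon 18 of SIGLEC1-201 without splicing, where its coding sequence ends.
CD33-201, exon 1 then exon 2: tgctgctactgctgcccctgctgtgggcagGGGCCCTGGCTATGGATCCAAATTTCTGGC
CD33-203, exon 1 then its next exon: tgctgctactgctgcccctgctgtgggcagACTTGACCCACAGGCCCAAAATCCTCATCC
SIGLEC1-201, exon 18 then its next exon: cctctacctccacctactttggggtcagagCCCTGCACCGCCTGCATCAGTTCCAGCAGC
SIGLEC1-202, the same exon then the unspliced bases: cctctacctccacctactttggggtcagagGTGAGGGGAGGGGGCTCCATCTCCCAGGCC
The lower-case bases are identical within each pair, and short reads that lie only in sequence shared by both transcripts cannot place a fragment with either. Transcript values below are the estimates deposited by the authors and inherit that ambiguity.

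SIGLEC1 was the member with the higher level after A9 in MONO-MAC-6 on which the list rests. Its level was 0.443, 0.718 and 0.856 TPM in DMSO samples 1 to 3 and 7.50, 7.57 and 6.78 TPM in the A9 samples. Every A9 sample was therefore far above every DMSO sample, and the A9 samples lay close together. The means were 0.672 ± 0.211 and 7.28 ± 0.437 TPM (SD, n = 3), a ratio of 10.8. On the log2(TPM + 1) scale the difference was 2.31 (SE 0.14), rank 16 from the highest of 12869 genes. SIGLEC1 was among these genes only because its A9 mean exceeded 1 TPM. The list was chosen on this difference, so its rank is a description and no support. Single libraries ran from 0.344 to 0.950 TPM with DMSO and from 6.67 to 8.00 TPM with A9, so no library of 1 group reached the other. Without DMSO sample 1, the lowest of the controls, the difference was 2.21. In this bulk RNA, more cells with SIGLEC1 and more SIGLEC1 RNA per cell cannot be told apart.

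Both SIGLEC1 transcripts were at a higher level with A9 in MONO-MAC-6. SIGLEC1-201, the 21-exon form, had 0.286, 0.533 and 0.662 TPM with DMSO and 5.26, 4.96 and 4.37 TPM with A9. SIGLEC1-202, the shorter form printed above, had 0.156, 0.185 and 0.195 TPM with DMSO and 2.23, 2.61 and 2.41 TPM with A9. Neither form overlapped between the groups. The full-length form held 64.7% to 77.2% of the gene's TPM with DMSO and 64.5% to 70.2% with A9, ranges that overlap.

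In MOLM-13 the SIGLEC1 level was near 0 in all samples. DMSO samples 1 to 3 had 0.015, 0 and 0.010 TPM, and A9 samples had 0.096, 0.123 and 0.078 TPM. The A9 samples lay above the DMSO samples, but 6 of 9 DMSO libraries were listed at 0, and no fold change is given. The gene did not reach the group mean of 1 TPM that was required for the test. The A9 difference of SIGLEC1 was not tested between the lines, whose tables are separate and whose doses differed.

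**Figure D1:**
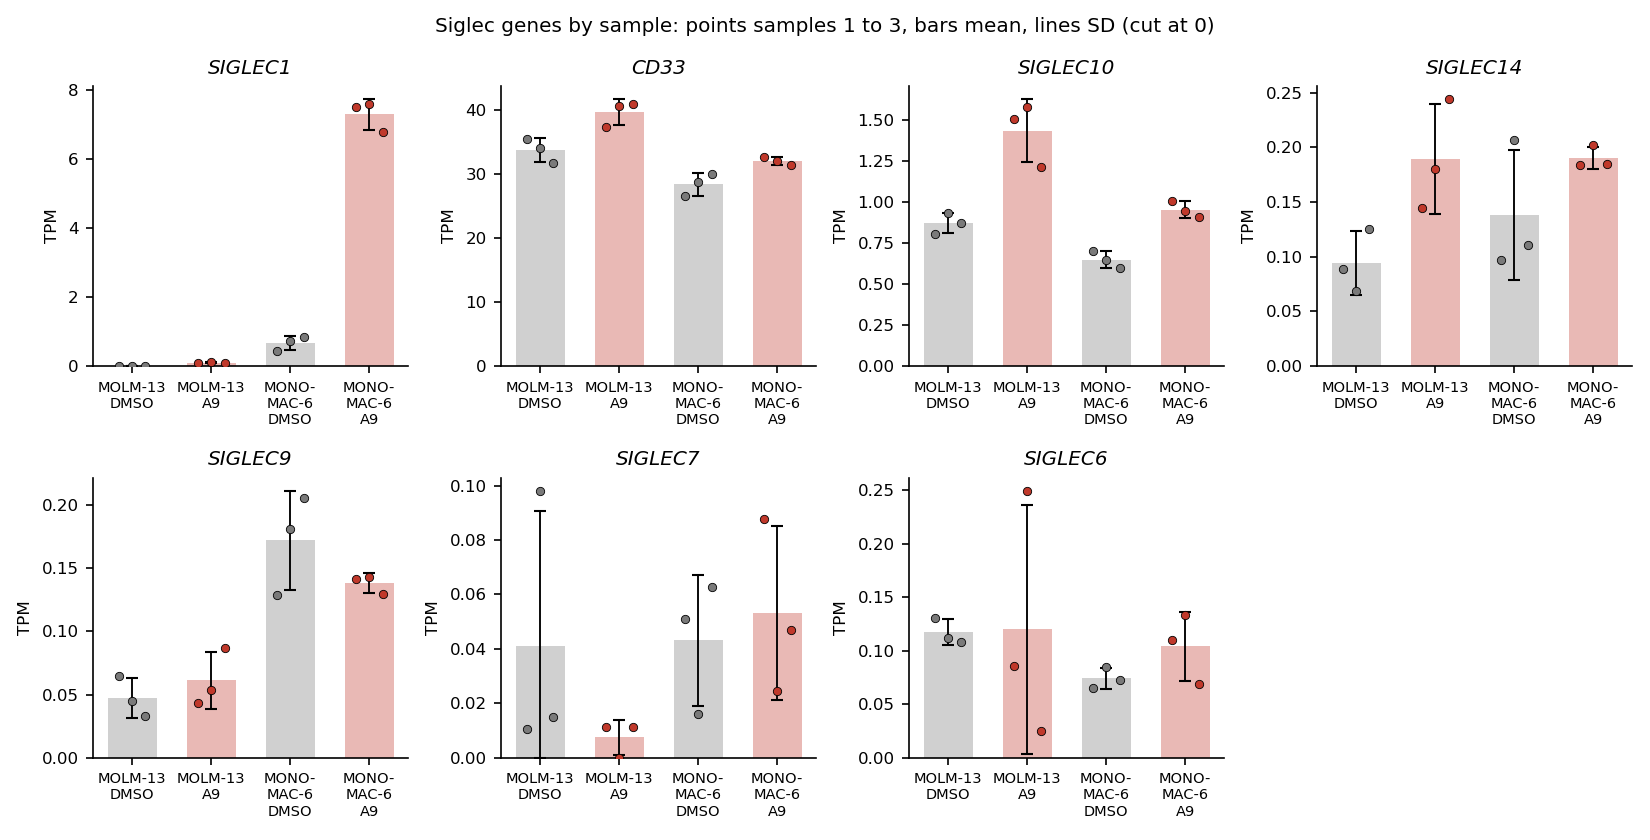
TPM of the 7 measured Siglec genes (y axis, linear, own scale per panel) in the 4 groups on the x axis; points are samples 1 to 3, bars the mean and lines the SD, cut at 0. SIGLEC1 in MONO-MAC-6 with A9 sits between 6.78 and 7.57 TPM, above all other samples of that gene, and CD33 sits between 26.5 and 40.9 TPM in all 12 samples.

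CD33 was the most abundant member in both lines and with both treatments. In MOLM-13 it had 35.4, 34.0 and 31.7 TPM with DMSO and 37.3, 40.6 and 40.9 TPM with A9. All A9 samples were above all DMSO samples, with means of 33.7 ± 1.90 and 39.6 ± 2.0 TPM (SD, n = 3). The log2 difference of 0.23 (SE 0.081) did not pass the test (limma adjusted p 0.510, unadjusted p 0.0272). In MONO-MAC-6 CD33 had 26.5, 28.7 and 30.03 TPM with DMSO and 32.6, 32.0 and 31.3 TPM with A9. These samples did not overlap either, but the log2 difference of 0.17 (SE 0.093) lay at the median of all genes tested in that line, 0.16. With median-ratio scaling of the samples the CD33 difference in MONO-MAC-6 was -0.0048, so its direction depends on the scaling.

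The higher CD33 sum in MOLM-13 came in part from a transcript that encodes no protein. CD33-206, annotated as a processed transcript, had 0.384, 2.43 and 3.02 TPM with DMSO and 2.72, 3.23 and 10.7 TPM with A9. Its highest value was in A9 sample 3 and its lowest in DMSO sample 1, the samples at the ends of the first principal component. In MONO-MAC-6 its highest value, 5.97 TPM, was in DMSO sample 1, which stood apart there, against 1.42 to 3.05 TPM in the other samples. The part of this between-sample spread in the CD33 result was not tested. Coding CD33 transcripts alone gave 27.0 ± 2.77 TPM with DMSO and 29.8 ± 2.89 TPM with A9 in MOLM-13 (SD, n = 3). By sample they had 29.99, 26.4 and 24.5 TPM with DMSO and 30.03, 32.6 and 26.8 TPM with A9. Unlike the gene sum, the coding transcripts therefore overlapped between the treatments. Their log2 difference was 0.14 (limma adjusted p 0.862).

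Most coding CD33 RNA held exon 2 and so the ligand-binding domain. In MOLM-13 the coding transcripts without it, as in the CD33-203 junction above, made up 21.2%, 25.4% and 27.4% of coding CD33 TPM with DMSO. With A9 these shares were 18.97%, 18.3% and 31.3%, a wider range that spans the DMSO samples. In MONO-MAC-6 the shares were 19.3%, 10.6% and 14.1% with DMSO and 18.4%, 9.04% and 10.8% with A9. The treatments overlapped in each line. Among DMSO samples the shares of the 2 lines did not overlap, but the tables are separate and no test was made between them.

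**Figure D2:**
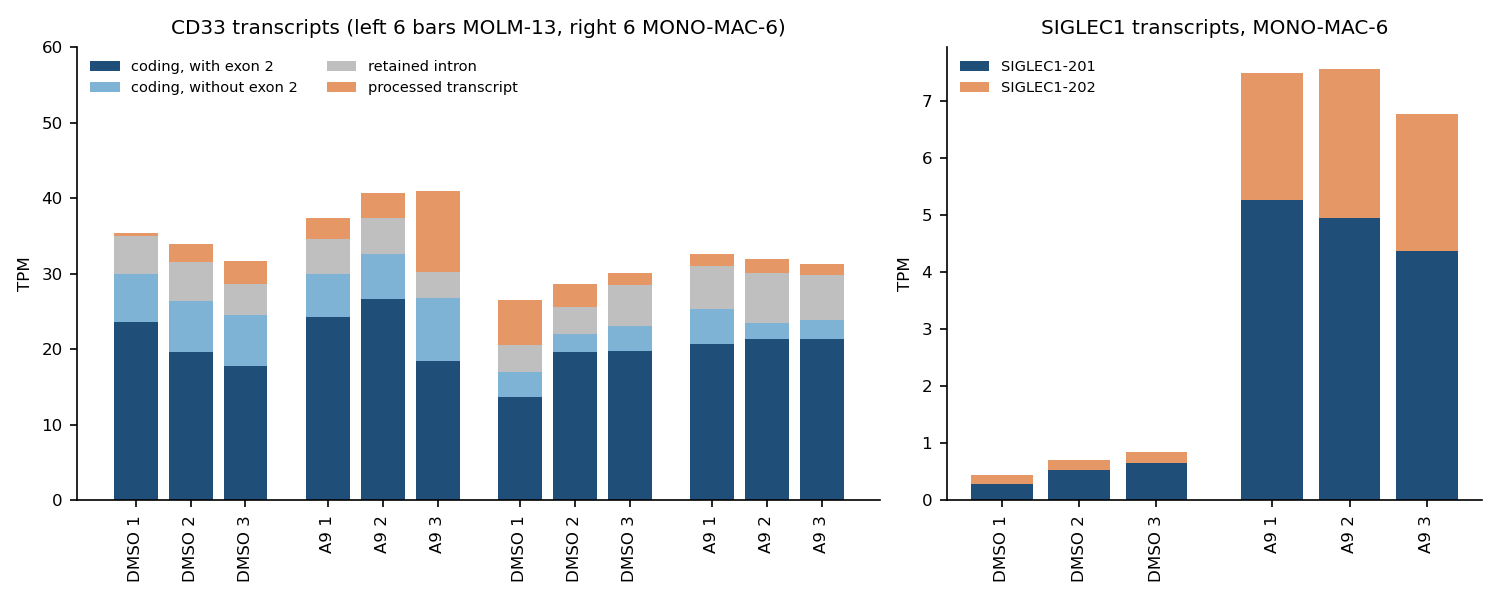
Left, TPM of CD33 transcripts stacked by kind in each sample (x axis, sample; y axis, TPM); right, the 2 SIGLEC1 transcripts in MONO-MAC-6. The processed transcript CD33-206 reaches 10.7 TPM in MOLM-13 A9 sample 3, and both SIGLEC1 transcripts are higher in the 3 A9 samples than in the 3 DMSO samples.

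SIGLEC10 is an inhibitory receptor that binds CD24 and lies on the minus strand at chr19:51410021-51417803 (ENSG00000142512). In MOLM-13 it had 0.808, 0.934 and 0.874 TPM with DMSO and 1.504, 1.58 and 1.22 TPM with A9. The groups did not overlap, with means of 0.872 ± 0.063 and 1.43 ± 0.192 TPM (SD, n = 3), a ratio of 1.64. The log2 difference of 0.38 (SE 0.11) did not pass the test (limma adjusted p 0.399, unadjusted p 0.0149), and it was 0.65 with a pseudocount of 0.1. SIGLEC10 was tested in MOLM-13 only because its A9 mean exceeded 1 TPM. In MONO-MAC-6 it stayed just below that limit, with 0.700, 0.649 and 0.601 TPM with DMSO and 1.01, 0.945 and 0.906 TPM with A9, groups that again did not overlap. The gene overlaps AC008750.1 and AC008750.2 on the other strand, and the strand used in counting is not given in the sources used here.

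Some SIGLEC10 transcripts differed between the treatments in MONO-MAC-6, without a full change of form. SIGLEC10-202, a coding transcript, had 0.030, 0.030 and 0 TPM with DMSO and 0.336, 0.20 and 0.352 TPM with A9. SIGLEC10-207, another coding transcript, held 72.3%, 67.9% and 46.7% of the gene's TPM with DMSO and 12.4%, 39.2% and 22.4% with A9. Neither of these measures overlapped between the groups, but the TPM of SIGLEC10-207 did (0.281 to 0.505 with DMSO, 0.125 to 0.371 with A9). In A9 sample 2 SIGLEC10-207 still held more than SIGLEC10-202 (39.2% against 21.2%). SIGLEC10-203, a transcript with a retained intron, held 3.37% to 27.5% with DMSO and 24.9% to 32.2% with A9. In MOLM-13 the SIGLEC10-202 share ran from 28.3% to 49.4% with DMSO and from 24.6% to 51.5% with A9. All of these are levels or shares within a gene at 1.58 TPM or less in every sample and were not tested.

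SIGLEC14, the activating member, was low throughout. It had 0.089, 0.068 and 0.126 TPM with DMSO and 0.144, 0.180 and 0.244 TPM with A9 in MOLM-13, groups that did not overlap. The transcript with a retained intron, SIGLEC14-202, held 39.1% to 76.4% of the A9 values there. In MONO-MAC-6 the DMSO samples, from 0.097 to 0.207 TPM, overlapped the A9 samples, from 0.184 to 0.202 TPM. SIGLEC14 overlaps SIGLEC5, whose first exons are near-identical in sequence, so its values may include SIGLEC5 reads and are uncertain.

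The inhibitory receptors SIGLEC6, SIGLEC7 and SIGLEC9 stayed under 0.25 TPM in every sample. SIGLEC9 (a receptor of monocytes and neutrophils) was at 0.033 to 0.064 TPM in MOLM-13 with DMSO and 0.043 to 0.087 TPM with A9. In MONO-MAC-6 it was at 0.129 to 0.206 TPM with DMSO and 0.129 to 0.144 TPM with A9. SIGLEC7 (best known from natural killer cells) stayed at or below 0.098 TPM in all 12 samples. SIGLEC6 (known from mast cells and placenta) ran from 0.024 to 0.249 TPM in MOLM-13 with A9 alone, a range wider than in the other 3 groups. The treatments overlapped for all 3 genes in both lines.

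Ordered by mean TPM, CD33 stood first in all 4 groups. SIGLEC10 came second in MOLM-13 with both treatments, and SIGLEC6 and SIGLEC14 followed with sample ranges that overlapped. In MONO-MAC-6 with DMSO, SIGLEC1 (0.443 to 0.856 TPM) and SIGLEC10 (0.601 to 0.700 TPM) overlapped and did not differ beyond their spread. With A9, SIGLEC1 lay clearly above SIGLEC10, and SIGLEC10 above SIGLEC14. CD33 held 93.9% to 94.7% of the summed TPM of the 7 genes in MONO-MAC-6 with DMSO and 78.0% to 79.4% with A9. SIGLEC1 held 1.58% to 2.68% and 17.2% to 18.5%. In MOLM-13 CD33 held 94.9% to 96.9% in all samples.

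Of the 7 measured members, 2 were tested in MOLM-13 (CD33 and SIGLEC10) and 0 passed in limma at an adjusted p under 0.05, while 2 had an unadjusted p under 0.05. SIGLEC10 entered the test through its higher group alone, so its p is no support for a rise. Among all 11596 genes tested there, 0.121% passed and 7.89% had an unadjusted limma p under 0.05. The unadjusted share of all genes tested in MONO-MAC-6 was 20.4%. Counts at an unadjusted p under 0.05 given for the lists below stand beside these shares. In MONO-MAC-6, 2 members were tested (SIGLEC1 and CD33) and 1 passed, SIGLEC1, beside 3.36% of 12869 genes, and nothing is read from that count because the list rests on it. All A9 samples lay above all DMSO samples for 4 of 7 members in MOLM-13 (SIGLEC1, CD33, SIGLEC10 and SIGLEC14), where 6.33% of 24553 genes did so. The same held for 3 of 7 in MONO-MAC-6 (SIGLEC1, CD33 and SIGLEC10), where 18.5% of 25814 genes did so. The members were chosen with results known, so these counts describe the list and are no test. Of all genes that passed in MONO-MAC-6, 74.6% were higher with A9, and 61.6% were with median-ratio scaling.

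The 8 other Siglec genes (CD22, MAG, SIGLEC8, SIGLEC11, SIGLEC12, SIGLEC15, SIGLEC16 and SIGLECL1) were all below 1 TPM in every group, so 0 were tested. Their summed level was 0.675 to 1.14 TPM with DMSO and 0.809 to 0.992 TPM with A9 in MOLM-13. In MONO-MAC-6 it was 0.902 to 1.08 TPM with DMSO and 1.66 to 2.03 TPM with A9. SIGLEC16, which pairs with DAP12, accounted for the most of this in MONO-MAC-6, with a mean of 0.307 ± 0.104 TPM with DMSO and 0.657 ± 0.023 TPM with A9 (SD, n = 3). Its near-identical inhibitory counterpart SIGLEC11 was at 0.198 ± 0.014 and 0.383 ± 0.019 TPM (SD, n = 3), and reads of the pair may be split between them.

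All 14 signalling partners of Siglecs were tested in both lines, some at levels near 1 TPM, and in MONO-MAC-6 the adaptor of the activating members rose. Of 14 partner genes tested, 3 rose and 0 fell there, with a list median of 0.37 on the log2 scale against 0.16 over all genes. TYROBP, which encodes DAP12, rose from 9.44 ± 1.16 to 48.4 ± 8.02 TPM (SD, n = 3; log2 difference 2.24, SE 0.16, limma adjusted p 0.00207). FGR, a SRC-family kinase, rose from 10.7 ± 2.56 to 64.1 ± 8.98 TPM (SD, n = 3; log2 difference 2.49, limma adjusted p 0.00289). With median-ratio scaling the counts were 2 higher and 1 lower, beside 554 genes called in all. In MOLM-13, 0 of 14 passed in limma and 2 had an unadjusted p under 0.05. There PTPN6, the phosphatase SHP-1, was at 134 ± 6.81 TPM with DMSO and 138 ± 11.4 TPM with A9 (SD, n = 3), and the linker GRB2 at 123.1 ± 9.37 and 136 ± 14.2 TPM.

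The protein ligands of Siglecs were represented by 7 genes. In MONO-MAC-6, 5 were tested and 1 rose, LGALS3BP, a sialylated secreted glycoprotein, from 60.6 ± 11.5 to 183 ± 5.12 TPM (SD, n = 3; log2 difference 1.60, limma adjusted p 0.00461). In MOLM-13, 4 were tested, 0 passed in limma and 1 had an unadjusted p under 0.05. The most abundant there were the sialomucins SPN (CD43), at 49.0 ± 15.7 TPM with DMSO and 46.0 ± 12.2 TPM with A9, and MUC1, at 51.6 ± 8.11 and 38.9 ± 10.1 TPM (SD, n = 3).

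Genes that make, attach and remove sialic acid gave 0 calls with the reported setting. Of 9 synthesis and transport genes, 0 passed in limma in either line, with 1 (MOLM-13) and 3 (MONO-MAC-6) at an unadjusted p under 0.05. NANS, the sialic acid synthase, was at 76.7 and 83.5 TPM in MOLM-13 and at 101 and 93.3 TPM in MONO-MAC-6 (DMSO, then A9). CMAS, which activates sialic acid as a nucleotide sugar, was at 27.4 and 27.0 TPM in MOLM-13. SLC17A5, the lysosomal sialic acid exporter, was at 32.2 and 47.3 TPM in MONO-MAC-6 (limma adjusted p 0.155). Of 20 sialyltransferases, 11 (MOLM-13) and 12 (MONO-MAC-6) were tested, and 0 passed in limma, with 3 in each line at an unadjusted p under 0.05. ST3GAL4 was at 38.2 ± 2.60 TPM with DMSO and 25.8 ± 1.89 TPM with A9 in MOLM-13 (SD, n = 3; log2 difference -0.55, limma adjusted p 0.124). In MONO-MAC-6 ST3GAL4 was at 32.1 and 22.2 TPM (log2 difference -0.51, limma adjusted p 0.0783). With median-ratio scaling ST3GAL4 was called lower there (limma adjusted p 0.0201), and 1 gene of the synthesis and transport list was called higher. That scaling called 554 genes in all in MONO-MAC-6. ST3GAL3 was at 14.6 and 13.7 TPM in MOLM-13 and at 33.8 and 33.7 TPM in MONO-MAC-6, where ST3GAL6 was at 38.1 and 47.9 TPM. Of 5 sialidase genes, 2 were tested in each line and 0 passed in limma, with 0 (MOLM-13) and 1 (MONO-MAC-6) at an unadjusted p under 0.05. CTSA, the protective protein of lysosomal sialidase, was at 38.9 and 42.0 TPM in MOLM-13 and at 96.3 and 124 TPM in MONO-MAC-6. NEU3, the plasma membrane sialidase, was at 10.7 and 8.26 TPM in MOLM-13 and at 18.7 and 25.1 TPM in MONO-MAC-6. Without MONO-MAC-6 DMSO sample 1, these 3 lists held 5 higher and 2 lower calls in that line. That fit called 3202 genes in all, against 433 with all samples, so nothing is read from the list count.

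Other inhibitory and paired receptors of myeloid cells gave 2 calls in MONO-MAC-6 among 12 tested. CLEC12A, a C-type lectin also used as an AML antigen, rose from 15.9 ± 1.23 to 31.3 ± 1.99 TPM (SD, n = 3; log2 difference 0.94, limma adjusted p 0.00989). VSIR, the checkpoint receptor VISTA, rose from 13.7 ± 1.69 to 23.9 ± 1.55 TPM (SD, n = 3; log2 difference 0.76, limma adjusted p 0.0298). CLEC12A lost its call when any A9 sample was left out, with an adjusted p of up to 0.0894, and VSIR lost it in all fits that left out a sample other than DMSO sample 1. Without DMSO sample 1 the list held 7 higher and 1 lower, in the fit that called 3202 genes in all. In MOLM-13, 14 were tested and 0 passed in limma, with 4 at an unadjusted p under 0.05. CLEC12A was at 1.495 ± 0.530 TPM with DMSO and 5.24 ± 0.606 TPM with A9 there (SD, n = 3; log2 difference 1.34, limma adjusted p 0.0739), and its difference between the lines was not tested. It was called there with median-ratio scaling (limma adjusted p 0.0215). SIRPA, the receptor of CD47, was at 62.1 and 61.8 TPM there, and PILRB, an activating paired receptor, at 32.9 and 35.2 TPM.

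**Figure D3:**
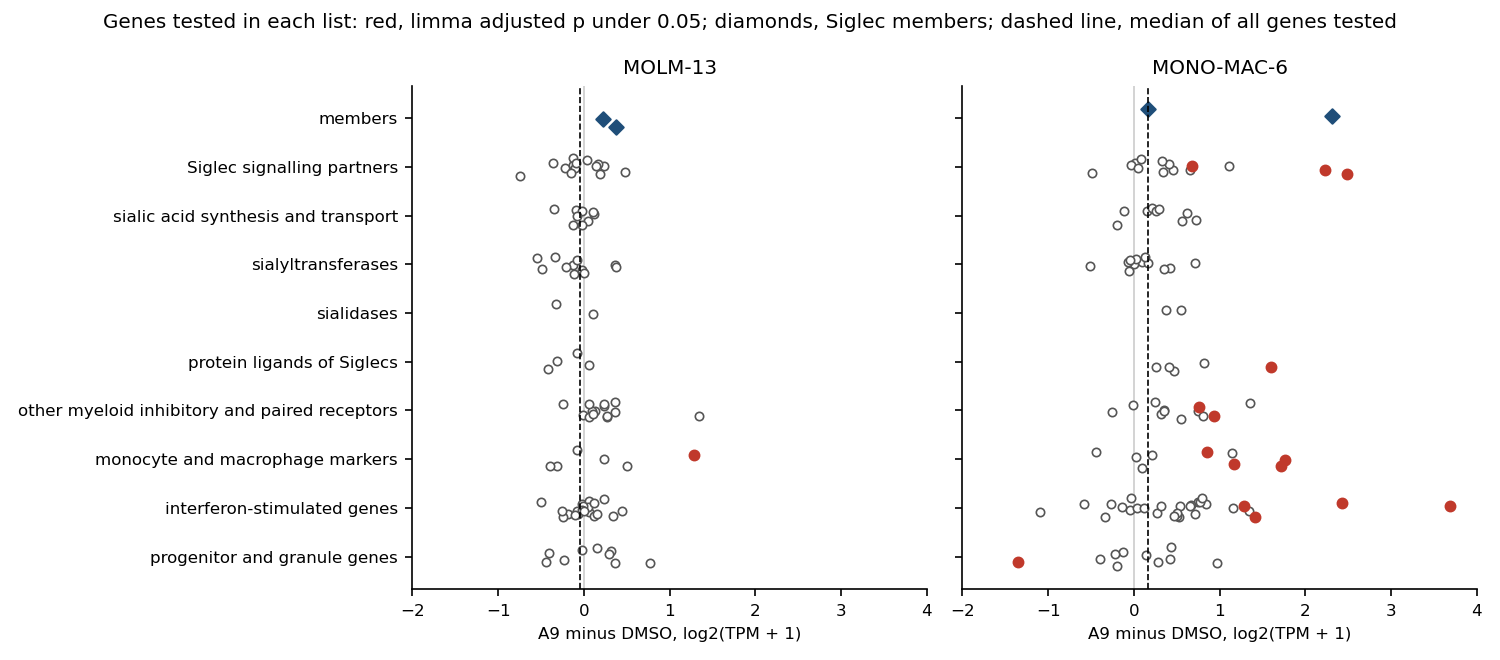
Log2(TPM + 1) differences, A9 minus DMSO (x axis), of every tested gene in each list (y axis) in MOLM-13 (left) and MONO-MAC-6 (right); diamonds are Siglec members, red points passed limma at an adjusted p under 0.05, and the dashed line is the median of all genes tested. In MOLM-13 1 gene of the lists passed, LYZ, and in MONO-MAC-6 FGR and TYROBP lie near SIGLEC1, at 2.49 and 2.24.

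SIGLEC1 is known as an interferon-inducible gene of macrophages, so both groups of genes were set beside it. Of 30 interferon-stimulated genes, 29 were tested in MONO-MAC-6, and 4 rose and 0 fell, with a list median of 0.52 against 0.16 over all genes. IFI27 rose from 5.22 ± 2.34 to 75.7 ± 6.92 TPM and IFI6, another mitochondrial interferon-stimulated protein, from 57.4 ± 12.3 to 310 ± 16.1 TPM (SD, n = 3; limma adjusted p 0.00207 and 0.00143). OAS3, an antiviral oligoadenylate synthetase, rose from 0.837 to 3.80 TPM and IFI44L from 1.49 to 5.00 TPM (limma adjusted p 0.0169 and 0.0152). The DMSO mean of OAS3 was under 1 TPM, so it was tested only through its A9 group. These 2 calls were lost in 4 of the 6 fits that left out a sample. Without DMSO sample 1, 16 were higher and 3 lower, in a fit that called 3202 genes in all, against 433 with all samples. In MOLM-13, where SIGLEC1 was near 0, 20 were tested and 0 passed in limma, with 5 at an unadjusted p under 0.05. BST2 (tetherin) was at 69.8 ± 3.40 TPM with DMSO and 88.8 ± 5.34 TPM with A9 there, and TRIM22 at 32.6 and 32.4 TPM.

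Of 18 monocyte and macrophage markers, 9 were tested in MONO-MAC-6, and 4 rose and 0 fell. CD14 rose from 3.14 ± 0.529 to 13.0 ± 0.552 TPM and CD68, a lysosomal protein of macrophages, from 52.5 ± 10.7 to 173 ± 11.6 TPM (SD, n = 3; limma adjusted p 0.00255 and 0.00538). LYZ rose from 3413 to 7681 TPM and MARCO, a scavenger receptor, from 0.335 to 1.41 TPM (limma adjusted p 0.00274 and 0.0121). MARCO was tested only because its A9 mean exceeded 1 TPM, so its count among the risers is set in part by the filter. It lost its call in 5 of the 6 fits that left out a sample, all but the fit without DMSO sample 1, and CD68 lost it without A9 sample 2 or 3. Without DMSO sample 1 the list held 5 higher and 1 lower, in the fit that called 3202 genes in all. Leaving out 1 sample at a time gave 2 to 6 calls in the list. The summed level of the list was 3123 to 3700 TPM with DMSO and 7758 to 8086 TPM with A9. In MOLM-13, 6 were tested and 1 rose, LYZ, from 133 ± 10.4 to 327 ± 14.02 TPM (SD, n = 3; log2 difference 1.29, limma adjusted p 0.00517), a call lost without A9 sample 1 (adjusted p 0.0659). So LYZ rose in both lines, while SIGLEC1 stayed under 0.13 TPM in MOLM-13. The difference of either effect between the lines was not tested.

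Of 12 progenitor and granule genes, 10 were tested in each line. CTSG, the granule protease cathepsin G, fell from 591 ± 89.2 to 229 ± 21.1 TPM in MONO-MAC-6 (SD, n = 3; log2 difference -1.36, limma adjusted p 0.00563), and was not called without A9 sample 2 or 3. In MOLM-13, 0 passed in limma and 5 had an unadjusted p under 0.05. CTSG was at 3461 ± 163 TPM with DMSO and 2612 ± 179 TPM with A9 there (limma adjusted p 0.134), and ELANE, neutrophil elastase, at 932 ± 143 and 1575 ± 41.7 TPM (SD, n = 3; limma adjusted p 0.0877).

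Markers of other cell types were near 0, with a few above 1 TPM. The T and NK cell list (7 genes) summed to 0.816 to 1.31 TPM in MOLM-13 and 2.98 to 6.02 TPM in MONO-MAC-6, with CD3E and CD2 at 0. The most abundant of it in MONO-MAC-6 were CD8A, at 3.15 and 3.28 TPM, and KLRD1, at 0.739 and 1.17 TPM. The B cell list (5 genes) summed to 2.02 to 3.84 TPM in MOLM-13. In MONO-MAC-6 it summed to 9.84 to 11.1 TPM with DMSO and 6.31 to 7.14 TPM with A9, with MS4A1 at 0. Among its genes CD79B was at 3.36 and 1.54 TPM in MONO-MAC-6, and PAX5 at 1.04 and 0.946 TPM in MOLM-13 (DMSO, then A9). The erythroid and megakaryocytic list (7 genes) summed to under 0.86 TPM in MOLM-13. In MONO-MAC-6 it summed to 7.05 to 10.8 TPM with DMSO and 3.91 to 5.87 TPM with A9, led by HBA1 at 6.72 and 3.22 TPM and KLF1 at 1.34 and 0.908 TPM. HBB and PF4 were at 0 in both lines. The mast cell, basophil and eosinophil list (7 genes) summed in MONO-MAC-6 to 28.2 to 38.1 TPM with DMSO and 77.2 to 86.4 TPM with A9. This was mainly TPSAB1, a tryptase with near-identical copies, which rose from 31.0 ± 5.44 to 80.3 ± 4.81 TPM (SD, n = 3; log2 difference 1.36, limma adjusted p 0.00654), a call lost without A9 sample 2 or 3, while CPA3 was at 0. In MOLM-13 that list summed to 1.39 to 1.90 TPM with DMSO and 3.03 to 3.79 TPM with A9, led by PRG2 at 0.991 and 2.60 TPM. Of these 4 lists, TPSAB1 was the single gene that passed in limma, with 4 more in MONO-MAC-6 and 1 in MOLM-13 at an unadjusted p under 0.05, and the part of these markers in the SIGLEC1 result was not tested.

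The 5 genes with a pattern most like SIGLEC1 over the 12 samples, among 10068 genes whose mean reached 5 TPM in some group, were SLC11A1, PSAP, CXCL1, FUCA1 and OLFML3. Their Pearson correlations on the log2(TPM + 1) scale ran from 0.988 to 0.995, given as a description, because 3 high samples of 1 group set them. SLC11A1, a metal transporter of macrophage phagosomes, had a mean of 2.58 TPM with DMSO and 35.7 TPM with A9 in MONO-MAC-6. PSAP, the precursor of the saposins, had 166 and 504 TPM there. FUCA1, a lysosomal fucosidase, had 9.08 and 24.2 TPM. The chemokine CXCL1 had 1.17 and 16.2 TPM and was at 0 in MOLM-13. OLFML3, a secreted protein, had 0.413 and 6.77 TPM. All 5 were highest in MONO-MAC-6 with A9.

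**Figure D4:**
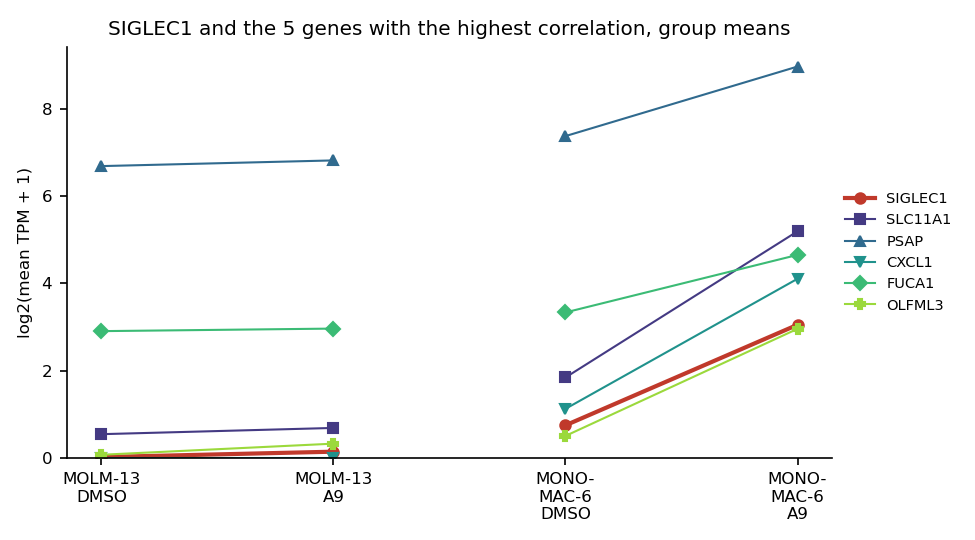
Group means on the log2(TPM + 1) scale (y axis) of SIGLEC1 and the 5 genes with the highest correlation to it, with DMSO and A9 joined within each line (x axis). In MONO-MAC-6 SIGLEC1 goes from 0.672 to 7.28 TPM and SLC11A1 from 2.58 to 35.7 TPM, while the MOLM-13 means of both genes stay under 1 TPM.

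CD33 had another set of closest genes: HERC2, TMBIM4, OTULINL, ABHD15 and SERTAD3, with correlations from 0.938 to 0.966 over the same 12 samples. HERC2, a ubiquitin ligase, had 17.9 and 23.2 TPM in MOLM-13 and 11.2 and 14.7 TPM in MONO-MAC-6. OTULINL had 11.2 and 19.2 TPM in MOLM-13 and 6.88 and 8.50 TPM in MONO-MAC-6. Like CD33, both were higher in MOLM-13 than in MONO-MAC-6, a comparison of levels across separate tables, and no gene was shared with the set for SIGLEC1.

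Promoters of 7 of the 8 members, all but SIGLEC1, were in a RefSeq table (GRCh38.p14), and the 250 bases before each start were searched on both strands. The PU.1 core GAGGAA, the motif of a myeloid master regulator, was found in CD33 (at -90 and -10), SIGLEC6, SIGLEC7 and SIGLEC9. It was in 23.6% of 35116 promoters. The interferon-stimulated response element (3.02% of promoters), the loose NF-kB motif (22.6%), the C/EBP core TTGCNNAA (9.05%) and the NR4A1 motif AAAGGTCA (1.05%) were found in none of the 7, which says only that these letters are absent from these windows.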

How the data were processed

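The authors deposited TPM per Ensembl transcript, in 1 table per line of 207175 transcripts and 18 libraries, and each library sums to 1000000. Kallisto, limma and GRCh38 are named, without versions, per the submitters' processing notes. Per the labels' protocols, poly(A) RNA was sequenced in pairs, and strand of counting is not given in the sources used here. Identifiers of 162561 transcripts (78.5%) matched GENCODE 29, holding 89.9% to 91.4% of TPM, and were summed by symbol. The 3 libraries with the same first number were averaged. Per line, genes whose mean reached 1 TPM in either group entered the test, on log2(TPM + 1), with limma 3.58.1 under R 4.3.3 (linear fit, moderated with a mean trend and robust variance), two-sided, with Benjamini-Hochberg adjustment over all genes tested and a threshold of 0.05. A fold change on this scale understates the change of low genes.

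The members, gene lists and rules were chosen with earlier results of these data known. Named were all members, up to 4 called genes of largest difference per list and line (or the 2 most abundant where none passed), and the 5 genes most correlated with SIGLEC1 and with CD33. Lists covered other Siglecs, signalling partners, sialic acid synthesis, sialyltransferases, sialidases, protein ligands, other inhibitory receptors, monocyte and macrophage markers, interferon-stimulated genes, progenitor and granule genes, and other lineages. In simulated data with 200 genes changed by 1.5 on the log2 scale, 83.5% were recovered among 11596 genes for MOLM-13 and 73.5% among 12869 for MONO-MAC-6, with 2 and 4 false calls. The simulated noise was drawn separately for each gene, and changed genes had a DMSO mean of at least 2 TPM. In the real samples the first principal component held 67.6% (MOLM-13) and 70.2% (MONO-MAC-6) of the variance. The simulated rates therefore check the fit and do not give error rates for these data. Other settings tried were no filter, a minimum of 5 TPM, a pseudocount of 0.1, a threshold of 0.01, median-ratio scaling, other uses of the libraries, coding transcripts alone, samples left out in turn, and a replicate block. SIGLEC5 transcripts were not analysed here, and values of 2 genes of the lists are not reported here. Figures were made with Python 3.11.15 and matplotlib 3.10.9.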

Additional observations from a re-analysis of the deposited data

How the results depend on the processing

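The SIGLEC1 difference in MONO-MAC-6, the value on which the list was chosen, ran from 2.21 to 3.29 over 15 settings, the highest with a pseudocount of 0.1, and is given as a description. The CD33 difference in MOLM-13 ran from 0.14 to 0.28 and that of SIGLEC10 from 0.33 to 0.65, and each passed in 2 settings, both of which treat the 9 libraries differently: averaged by second number (limma adjusted p 0.00213 and 0.00704) or each library as its own sample (0.00535 and 0.00555). SIGLEC10 gave no value at a minimum of 5 TPM. Members called numbered 0 (MOLM-13) and 1 (MONO-MAC-6) as reported, and 0 to 0 and 1 to 1 leaving out 1 sample. The member called in MONO-MAC-6 was SIGLEC1, on which the list was chosen, so nothing is read from that count. Under the 2 settings that treat the libraries differently, members called numbered 2 in each line. By construction these settings average across the samples of the first number or count each of them several times, and they called 5437 and 1742 genes of MOLM-13 and 8701 and 5582 of MONO-MAC-6. Genes called in MOLM-13, 14 as reported, were 4 with no filter, 48 with median-ratio scaling, 4 at a threshold of 0.01 and 2 to 8 leaving out 1 sample. In MONO-MAC-6, 433 as reported, they were 254 with no filter, 109 at a threshold of 0.01 and 59 to 3202 leaving out 1 sample, the highest without DMSO sample 1. Genes of the lists called were 1 in MOLM-13 (2 with scaling, 53 by second number, 30 with each library, 0 to 1 leaving out 1 sample) and 16 in MONO-MAC-6 (88 by second number, 69 with each library, 7 to 56 leaving out 1 sample). The cause was not tested.

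With the first number as a replicate block, MOLM-13 had 87 calls and MONO-MAC-6 had 102, of which 5 and 10 were genes of the lists. The block changed no call of a member: CD33 and SIGLEC10 had limma adjusted p of 0.308 and 0.265 in MOLM-13. Of genes named from the lists, ST3GAL4 (limma adjusted p 0.0446), CTSG (0.0270) and ELANE (0.0210) were called with the block in MOLM-13. In MONO-MAC-6 CLEC12A (0.0681), VSIR (0.129), MARCO (0.0849), OAS3 (0.0640) and IFI44L (0.0681) were not called with it. Deviations of same-numbered samples correlated at 0.36, -0.077 and 0.68 (MOLM-13) and at -0.027, 0.088 and -0.091 (MONO-MAC-6), so the numbers were not taken as pairs, and not every sample correlated best with its own number.

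Differences near 0 changed sign in a few settings. In MOLM-13 these were PTPN6 with coding transcripts alone (-0.13; -0.024 to 0.094 leaving out 1 sample), CMAS with scaling (0.029; -0.055 to 0.027), SIRPA with scaling (0.034; -0.13 to 0.13), TRIM22 with scaling (0.048), coding transcripts alone (0.030) or each library (0.0017; -0.17 to 0.15), ST3GAL3 (-0.18 to 0.0036 leaving out 1 sample) and SPN (-0.30 to 0.15). In MONO-MAC-6 they were ST3GAL3 with coding transcripts alone (0.16; -0.058 to 0.042) and CD8A with scaling (-0.060; -0.14 to 0.18).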

Other observations

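All members but SIGLEC1 lie in 1 stretch of chromosome 19, from SIGLEC9 to SIGLEC14 (chr19:51124908-51646801, GRCh38), which holds 20 protein-coding genes, 19 of them measured. Only 8 of the 19 reached 1 TPM in a group, 2 of them Siglecs, CD33 and SIGLEC10. ETFB, an electron transfer flavoprotein subunit, was the highest, at 131 and 140 TPM in MOLM-13 and 162 and 198 TPM in MONO-MAC-6 (DMSO, then A9). NKG7, a granule protein of cytotoxic cells, was at 41.1 and 60.3 TPM in MOLM-13 and at 105 and 89.2 TPM in MONO-MAC-6. VSIG10L, which lies between CD33 and SIGLEC10, was under 0.1 TPM in MOLM-13 and at 0.704 and 1.51 TPM in MONO-MAC-6. These neighbours were looked at after their values were seen, and no test was made of the stretch.

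CD22, the Siglec of B cells, was chosen after its values were seen. In MONO-MAC-6 it was at 0.026, 0 and 0.033 TPM with DMSO and at 0.126, 0.616 and 0.261 TPM with A9, groups that did not overlap, at levels too low to be tested, while the B cell list as a whole summed to less with A9 than with DMSO.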
